A study of Mus musculus with 12 samples.

Results

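The classical E2F transcription factors and their DP partners were examined in mouse erythroid precursors that carried a knockout label for Rb, for E2f8, for both or for neither. The group was 8 genes, E2f1 to E2f6 with Tfdp1 and Tfdp2, taken by name from the array annotation through probe sets that list 1 of these symbols only. They were 8 of 19938 genes with such a probe set, and were read by 10 of 35557 probe sets, 2 each for E2f3 and Tfdp1 and 1 each for the others. Spleen cells positive for Ter119 and high for CD71, the transferrin receptor, were sorted from mice 3 months old, and each of 12 arrays measured 1 sample. There were 3 biological replicates by label in each of 4 groups: wild type (WT), E2f8 KO, Rb KO and the Rb;E2f8 double knockout (DKO). No source used here gives the deleted exons, any Cre line, the strain or the sex of the mice, or an allele or treatment that all groups share. Adjusted p-values rate differences between group means against the spread between these arrays.

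E2F proteins bind DNA as dimers with a DP protein, encoded by Tfdp1 or Tfdp2, and control genes for entry into S phase. E2f1, E2f2 and E2f3 encode the activating members, which the retinoblastoma protein (Rb) binds and restrains. E2f4 and E2f5 encode members that act mainly as repressors with the pocket proteins p107 and p130, and E2f6 encodes a repressor that binds no pocket protein and works with polycomb proteins. The atypical E2f7 and E2f8 bind DNA without a DP partner and repress many of the same genes, E2f1 among them. In red cell precursors E2f2 is known for its part in the exit from the cell cycle, E2f4 for fetal erythropoiesis, and Rb for erythroblast maturation.

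Start regions of 4 genes are shown because E2f3, Tfdp1 and E2f6 rose together in the arrays labelled DKO and because E2f2, which did not, also carries an E2F-type match. RefSeq start windows (GRCm38.p6, 250 bases before to 50 after a start) were listed for 6 of the 8 genes, not for E2f4 and E2f5. The motifs searched on both strands were the 4 sequences TTTCCCGC, TTTCGCGC, TTTGCCGC and TTTGGCGC, and no matches overlapped in the windows of these genes. Capitals mark a match; the bases are the 250 before the start on the strand of the gene, or, for E2f2, 30 bases around a match that lies after the start.
E2f3 (chr13:29986064-29986313, minus strand): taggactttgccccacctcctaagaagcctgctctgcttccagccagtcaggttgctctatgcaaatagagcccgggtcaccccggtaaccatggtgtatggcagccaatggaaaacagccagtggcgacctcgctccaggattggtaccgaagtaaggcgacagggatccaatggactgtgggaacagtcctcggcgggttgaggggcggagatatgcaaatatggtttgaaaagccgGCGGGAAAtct
Tfdp1 (chr8:13338501-13338750, plus strand): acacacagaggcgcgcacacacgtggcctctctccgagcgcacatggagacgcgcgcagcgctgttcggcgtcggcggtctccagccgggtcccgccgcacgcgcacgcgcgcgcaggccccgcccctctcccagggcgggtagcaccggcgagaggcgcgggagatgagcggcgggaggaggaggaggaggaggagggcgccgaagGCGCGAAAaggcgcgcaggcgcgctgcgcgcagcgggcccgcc
E2f6 (chr12:16810715-16810964, plus strand): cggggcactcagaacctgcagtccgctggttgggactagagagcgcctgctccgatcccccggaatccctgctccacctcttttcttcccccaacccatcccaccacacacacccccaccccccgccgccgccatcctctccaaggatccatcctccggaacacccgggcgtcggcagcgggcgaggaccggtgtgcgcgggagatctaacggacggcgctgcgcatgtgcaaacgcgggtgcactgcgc
E2f2 (chr4:136172294-136172323, plus strand): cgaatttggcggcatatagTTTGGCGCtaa
A match was found for 3 of the 6 genes, E2f3, Tfdp1 and E2f2, and for 704 of all 27025 symbols (2.6%). By window, 4 of the 10 listed for these genes held one, those of Tfdp1 overlapping in the same match, and 744 of all 32851 windows of 300 bases (2.26%). The E2f6 window holds no exact match to any of the 4 sequences searched. The listed E2f1 start lies 466 bases inside the outer boundary of the gene and those of Tfdp2 62459 and 63002 bases inside it, so their windows do not cover the outer starts. None of the 4 sequences was found in them, which says nothing about the outer starts.

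Rb1 and E2f8 signals did not all run with the labels, and markers of other cells differed between arrays. Rb1, which encodes Rb, averaged 12.82 ± 0.17 (log2 signal, SD, n = 3) in WT. It was lower with the Rb label, at 12.42 ± 0.11 in Rb KO and 12.12 ± 0.13 in DKO, but lowest in E2f8 KO, at 11.71 ± 0.03. E2f8 averaged 11.95 ± 0.29 in WT and was higher with its own label, at 12.81 ± 0.07 in E2f8 KO and 13.13 ± 0.04 in DKO. No source used here gives the position of these probe sets relative to the deleted parts, so genotype names below are the labels of the arrays. Erythroid markers (13 of 15 genes measured) had group means of 12.26 (Rb KO) to 12.79 (E2f8 KO), with Tfrc, which encodes CD71, at 11.73 or more on every array. These means join genes that moved in opposite directions. In DKO against WT, Alas2 (-0.45 ± 0.07, SE) and Trim10 (-0.71 ± 0.13) were lower at an adjusted limma p under 0.05. Epor (0.66 ± 0.21) and Hemgn (0.59 ± 0.17) were higher there, and the other genes of the list did not pass. In E2f8 KO the same genes passed in the same directions, and Tspo2 was also higher (1.23 ± 0.37). B cell markers (11 of 12 genes) averaged 6.29 to 7.35 on DKO arrays, 7.72 to 8.11 on E2f8 KO, 9.80 to 11.95 on Rb KO and 10.39 to 11.66 on WT arrays. In that order T cell markers (10 of 11) ran from 5.77 to 5.91, 6.13 to 6.26, 6.91 to 7.94 and 7.57 to 7.86. Macrophage and monocyte markers (15 of 15) ran from 6.99 to 7.84, 8.20 to 8.26, 8.54 to 8.89 and 9.02 to 9.94, and granulocyte markers (14 of 14) from 6.86 to 10.23, 8.17 to 8.63, 6.84 to 6.93 and 6.28 to 6.47. Group means of early erythroid progenitor, megakaryocyte and NK cell markers spanned 6.76 to 6.91, 6.82 to 7.47 and 5.13 to 6.01. Single progenitor markers also moved in opposite directions. At the same threshold against WT, Kit was lower in E2f8 KO (-1.08 ± 0.21) and DKO (-1.40 ± 0.21). Myb was higher in both (0.89 ± 0.26 and 1.09 ± 0.26), and Itga2b was higher in DKO (0.70 ± 0.18). Replicate 1 of Rb KO had the lowest B cell mean of its group (9.80) and replicate 3 of DKO the highest granulocyte mean (10.23). Xist stood at 5.22 and 3.99 and the Y-linked Eif2s3y at 8.17 and 7.82 in replicate 3 of E2f8 KO and of DKO, against 11.30 or more and 3.32 or less elsewhere. No label states the sex, but by these transcripts both arrays read as male and all others as female. Sex was thus mixed only in the groups with the E2f8 label. In these bulk samples fewer cells of a type and less RNA per cell cannot be told apart.

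**Figure D1:**
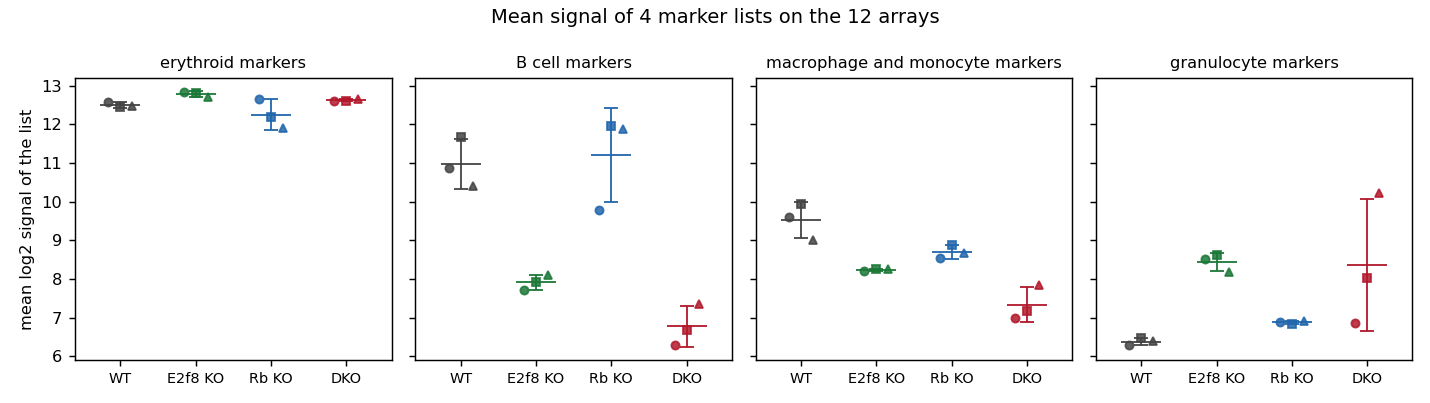
Mean log2 signal (y axis) of the erythroid, B cell, macrophage and granulocyte marker lists on each array, by genotype label (x axis). Circles, squares and triangles are replicates 1, 2 and 3, horizontal lines are group means and bars are SD (n = 3). B cell markers lie between 6.29 and 8.11 in all E2f8 KO and DKO arrays and at 9.80 or more in all WT and Rb KO arrays. The erythroid list mean stays between 11.90 and 12.85, though single genes of that list moved in opposite directions.

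E2f1, E2f3, E2f6 and Tfdp1 were higher and Tfdp2 lower in the arrays labelled DKO than in WT, a change of 5 of the 8 genes where 38.2% of 12980 tested genes changed (20.6% higher, 17.6% lower). All 8 genes passed the filter on low signals, which used the mean over the 12 arrays, but E2f5 lay close to its level of 5.84 with a mean of 5.98. In E2f8 KO against WT, E2f1 and E2f6 rose, 2 of 8 genes, against 26.1% of all tested genes called (11.9% higher, 14.2% lower). In Rb KO against WT none of the 8 was called, in a comparison that called 1 gene in all (0.0077%). There E2f1 and E2f2 had an unadjusted limma p under 0.05, but the share of all tested genes at that level is not given here. Against Rb KO, DKO arrays were higher in 6 of the 8 genes, all but E2f5 and Tfdp2, where 37.1% of tested genes changed (19.5% higher, 17.6% lower). Without replicate 3 of E2f8 KO and of DKO, which stand apart in Xist, 3 of the 8 were called there, with E2f2 at 0.43, E2f3 at 0.78 and E2f4 at 0.50 no longer called. Against E2f8 KO, they were higher in E2f1 and E2f3, 2 of 8 genes, where 2.37% of tested genes changed (1.73% higher, 0.647% lower), and without those arrays none was, at 0.84 and 1.26. E2f8 KO was higher than Rb KO in 3 of 8 genes, E2f2, E2f4 and E2f6, where 27.7% of tested genes changed (12.2% higher, 15.6% lower), and in E2f6 alone without those arrays (0.42 for E2f2 and 0.48 for E2f4). All 3 arrays of each group lay apart for 5 of the 8 genes in E2f8 KO against WT (45.8% of all tested genes), 3 in Rb KO against WT (6.28%) and 6 in DKO against WT (45.9%). They did so for 7 genes in DKO against Rb KO (43.6%), 5 in DKO against E2f8 KO (35.0%) and 3 in E2f8 KO against Rb KO (47.5%). The median difference of the 8 genes was 0.79 for DKO against WT and 0.00044 over all tested genes, and 0.19 and 0.060 for E2f8 KO against WT. The comparisons against WT share the WT arrays, and those of DKO share the DKO arrays. All shares of tested genes given here are from the fit to all 12 arrays.

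**Figure D2:**
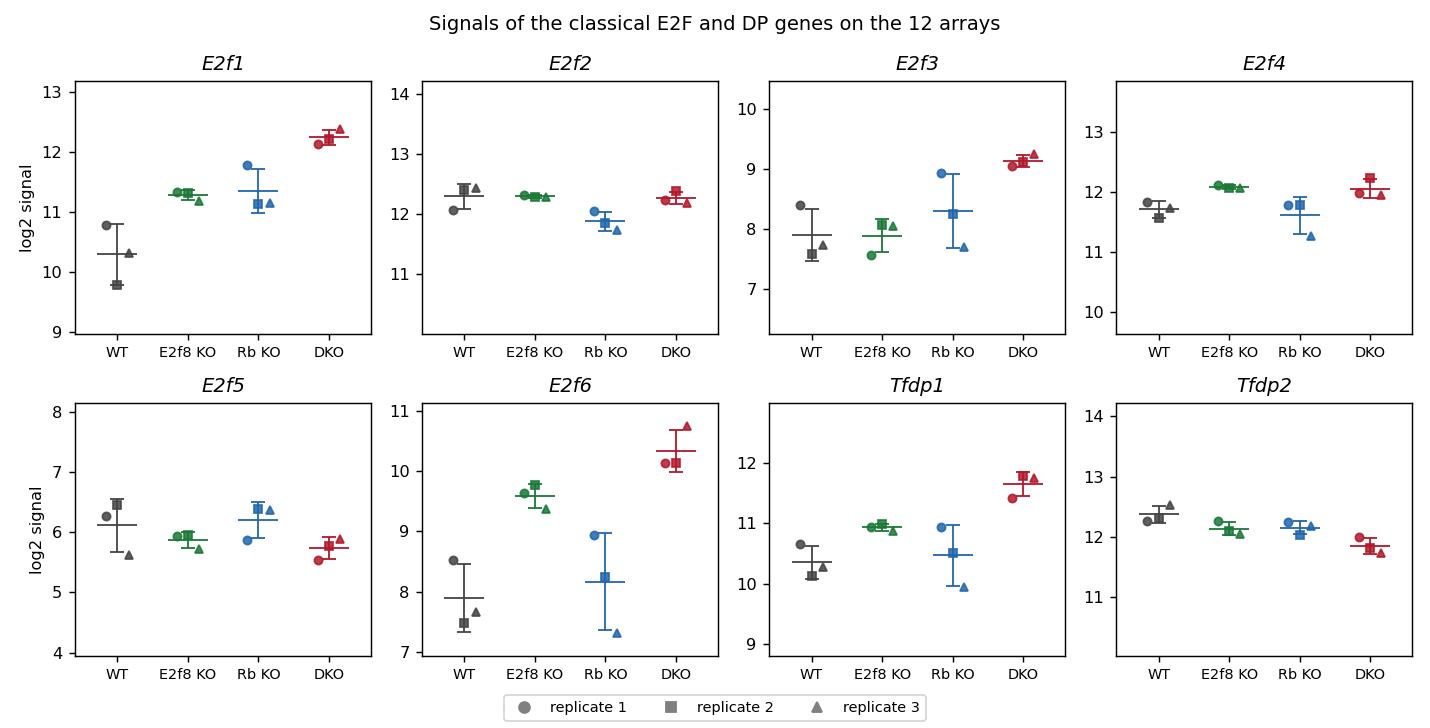
Log2 signal (y axis, the same span in every panel) of the 8 genes by genotype label (x axis), with the probe set of highest mean for E2f3 and Tfdp1. Circles, squares and triangles are replicates 1, 2 and 3, horizontal lines are group means and bars are SD (n = 3). E2f6 spans the widest range, from 7.32 to 10.75, and all 3 DKO arrays lie above all other arrays for E2f1, E2f3, E2f6 and Tfdp1.

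E2f1, whose product is the prototype activating E2F and whose gene is itself an E2F target, rose in E2f8 KO and DKO. The WT arrays read 10.79, 9.78 and 10.31 (log2 signal), those of Rb KO 11.78, 11.14 and 11.15, those of E2f8 KO 11.34, 11.32 and 11.19, and those of DKO 12.13, 12.22 and 12.38. All 6 arrays with a single label lay above all WT arrays and below all DKO arrays, while E2f8 KO and Rb KO overlapped. Against WT (differences ± SE, with 3 arrays in each group) E2f1 rose by 0.99 ± 0.23 (adjusted p = 0.00893), or 1.98-fold, in E2f8 KO, and by 1.95 ± 0.23 (adjusted p = 6.14e-05), or 3.86-fold, in DKO. The difference of Rb KO from WT was of the same size, 1.06 ± 0.23, but did not pass the threshold over all genes (adjusted p = 0.190, unadjusted p = 0.000497). E2f8 KO and Rb KO differed by -0.07 ± 0.23 (adjusted p = 0.837, 95% interval -0.57 to 0.42). DKO exceeded Rb KO by 0.88 ± 0.23 (adjusted p = 0.00905) and E2f8 KO by 0.96 ± 0.23 (adjusted p = 0.0494). The last call was lost without any 1 of replicate 3 of WT, replicate 2 of Rb KO, or replicate 1, 2 or 3 of E2f8 KO or of DKO, at differences of 0.89 to 1.02 and adjusted p of 0.0614 to 0.167. The interaction, by which the difference between E2f8 labels in the Rb KO background departs from that in the WT background, was -0.10 ± 0.33 (adjusted p = 0.966, 95% interval -0.81 to 0.60).

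E2f2, the activating member known for restraint of cell division in maturing erythroblasts, had group means within 0.03 of each other in WT, E2f8 KO and DKO. It read 12.23, 12.38 and 12.19 in DKO, 12.32, 12.28 and 12.29 in E2f8 KO and 12.06, 12.39 and 12.43 in WT. The Rb KO arrays, at 12.05, 11.85 and 11.74, lay below all others. The difference of Rb KO from WT was -0.41 ± 0.12 (adjusted p = 0.445, unadjusted p = 0.00497). E2f2 was higher by 0.39 ± 0.12 in DKO (adjusted p = 0.0247) and by 0.41 ± 0.12 in E2f8 KO (adjusted p = 0.0245) than in Rb KO, the latter among 27.7% of tested genes called for that comparison. From WT it differed by -0.00013 ± 0.12 in E2f8 KO (95% interval -0.27 to 0.26) and by -0.03 ± 0.12 in DKO (95% interval -0.29 to 0.24). The call against Rb KO was lost for DKO without replicate 2 or 3 of Rb KO or replicate 2 of DKO (0.37, 0.32 and 0.33), and for E2f8 KO without replicate 1, 2 or 3 of E2f8 KO or replicate 2 or 3 of Rb KO (0.34 to 0.42). The erythroid marker means of the Rb KO arrays were 12.67, 12.20 and 11.90 against 12.45 to 12.58 in WT. Replicate 1 lay above all WT arrays in these markers. In E2f2, at 12.05, it lay barely below the lowest WT array (12.06), and a link between the markers and E2f2 was not tested.

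E2f3, the activating member required for proliferation in many cell types, was high in the DKO arrays and variable among the Rb KO arrays. The probe set with the higher mean read 9.05, 9.11 and 9.25 in DKO, 8.93, 8.26 and 7.70 in Rb KO, 8.40, 7.58 and 7.74 in WT and 7.57, 8.06 and 8.05 in E2f8 KO. All DKO arrays lay above the others, and replicate 1 of Rb KO came closest to them. In DKO against WT E2f3 rose by 1.23 ± 0.29 (adjusted p = 0.00519), or 2.34-fold, and by 1.24 ± 0.29 (adjusted p = 0.0462) against E2f8 KO. In E2f8 KO its difference from WT was -0.01 ± 0.29 (adjusted p = 0.977, 95% interval -0.65 to 0.62), and in Rb KO 0.39 ± 0.29 (95% interval -0.24 to 1.02). Its interaction was 0.85 ± 0.41 (adjusted p = 0.869, 95% interval -0.04 to 1.75). The difference of DKO from Rb KO, 0.84 ± 0.29 (adjusted p = 0.0379), fell to 0.54 without replicate 3 of Rb KO. That call was also lost without replicate 3 of E2f8 KO, replicate 2 of Rb KO or replicate 1, 2 or 3 of DKO (0.78 to 0.88). The call against E2f8 KO was lost without replicate 3 of WT, replicate 2 of Rb KO, or any 1 replicate of E2f8 KO or DKO (1.08 to 1.33). The other E2f3 probe set, which read lower (6.06 to 7.21), differed by 0.52 ± 0.22 in DKO against WT. It did not pass the threshold among all 21789 single-gene probe sets (adjusted p = 0.107), and no source used here says which E2f3 transcripts each probe set reads.

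E2f4, whose product is the main repressive E2F of red cell precursors, showed small differences. In the fit to all 12 arrays they were called only against Rb KO. It read 11.79, 11.78 and 11.26 in Rb KO, 11.84, 11.56 and 11.73 in WT, 11.99, 12.23 and 11.95 in DKO and 12.11, 12.06 and 12.07 in E2f8 KO. Every E2f8 KO and DKO array lay above every WT and Rb KO array. The differences from WT were 0.37 ± 0.15 in E2f8 KO (adjusted p = 0.0820) and 0.35 ± 0.15 in DKO (adjusted p = 0.0841). Against Rb KO, E2f4 was higher by 0.47 ± 0.15 in E2f8 KO (adjusted p = 0.0320) and by 0.45 ± 0.15 in DKO (adjusted p = 0.0311). These differences were 0.30 and 0.27 without replicate 3 of Rb KO and were then not called. The call for E2f8 KO was further lost without any 1 of its replicates (0.46 to 0.48), and that for DKO without its replicate 1 or 2 (0.48 and 0.36). The difference of E2f8 KO from WT passed the threshold without replicate 1 or 3 of Rb KO (adjusted p = 0.0479 and 0.0257), and that of DKO from WT without replicate 3 of Rb KO (adjusted p = 0.0252), since these arrays enter the common estimate of the spread.

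E2f5, the other repressive member that pairs with pocket proteins, had signals close to the filter level and passed the threshold in no comparison. It read 5.54, 5.77 and 5.90 in DKO, 5.94, 5.95 and 5.71 in E2f8 KO, 6.27, 6.46 and 5.62 in WT and 5.87, 6.39 and 6.36 in Rb KO. The groups overlapped in every pair. The largest difference, of DKO from Rb KO, was -0.47 ± 0.20 (adjusted p = 0.0889), and that from WT -0.38 ± 0.20 (adjusted p = 0.166). Both were called once replicate 3 of WT was left out, at -0.47 and -0.63, and the first also without replicate 1 of Rb KO, at -0.64. Its mean lay at percentile 43.1 of all probe sets, so these differences rest on dim signals.

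E2f6, the repressor that acts with polycomb proteins and not with Rb, showed the widest differences of the 8 genes. Its log2 signals were 8.53, 7.47 and 7.66 in WT, 8.93, 8.24 and 7.32 in Rb KO, 9.63, 9.77 and 9.38 in E2f8 KO and 10.14, 10.13 and 10.75 in DKO. WT and Rb KO overlapped, and every E2f8 KO array lay above them and below every DKO array. E2f6 rose by 1.71 ± 0.37 (adjusted p = 0.00639), or 3.26-fold, in E2f8 KO and by 2.45 ± 0.37 (adjusted p = 0.000294), or 5.47-fold, in DKO. In Rb KO the difference was 0.28 ± 0.37 (unadjusted p = 0.469, 95% interval -0.52 to 1.07). DKO exceeded Rb KO by 2.18 ± 0.37 (adjusted p = 0.000785) and E2f8 KO exceeded Rb KO by 1.43 ± 0.37 (adjusted p = 0.0130), a call lost without replicate 3 of Rb KO (1.01). DKO and E2f8 KO did not overlap, but their difference of 0.75 ± 0.37 was not called (adjusted p = 0.304). The interaction was 0.47 ± 0.52 (adjusted p = 0.912, 95% interval -0.66 to 1.60).

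Tfdp1, which encodes DP1, the common dimer partner of the E2Fs, rose in DKO, and Tfdp2, which encodes DP2, fell. The brighter Tfdp1 probe set stood at 10.66, 10.13 and 10.27 in WT, 10.95, 10.51 and 9.94 in Rb KO, 10.95, 10.99 and 10.87 in E2f8 KO and 11.42, 11.79 and 11.75 in DKO. All DKO arrays lay above the others, and E2f8 KO lay above WT but overlapped Rb KO. Tfdp1 rose by 1.30 ± 0.23 (adjusted p = 0.000727), or 2.47-fold, in DKO against WT and by 1.19 ± 0.23 (adjusted p = 0.00158) against Rb KO. Its differences of 0.59 ± 0.23 in E2f8 KO from WT (adjusted p = 0.0725), 0.12 ± 0.23 in Rb KO from WT and 0.72 ± 0.23 in DKO from E2f8 KO (adjusted p = 0.117) were not called. The first passed the threshold without replicate 1 of WT (0.74) or without replicate 1 or 3 of Rb KO (adjusted p = 0.0198 and 0.0238), and the last without replicate 1 or 3 of Rb KO (adjusted p = 0.0336 and 0.0483). E2f8 KO and Rb KO differed by 0.47 ± 0.23 (adjusted p = 0.142), and by 0.71 without replicate 1 of Rb KO, which was called. The other Tfdp1 probe set gave 1.17 ± 0.24 for DKO against WT (adjusted p = 0.00231 among single-gene probe sets), so that both probe sets rose. Tfdp2 stood at 12.27, 12.31 and 12.53 in WT, 12.25, 12.03 and 12.18 in Rb KO, 12.25, 12.10 and 12.04 in E2f8 KO and 11.9965, 11.80 and 11.73 in DKO. The DKO arrays were the lowest and the WT arrays the highest, without overlap with the single labels. Tfdp2 fell by 0.53 ± 0.12 (adjusted p = 0.00352), or 1.44-fold, in DKO against WT. Its differences were -0.24 ± 0.12 in E2f8 KO (adjusted p = 0.151) and -0.22 ± 0.12 in Rb KO (unadjusted p = 0.0854), and -0.31 ± 0.12 in DKO from Rb KO (adjusted p = 0.0558). The last was called without replicate 3 of WT (-0.31) or replicate 1 of DKO (-0.38).

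**Figure D3:**
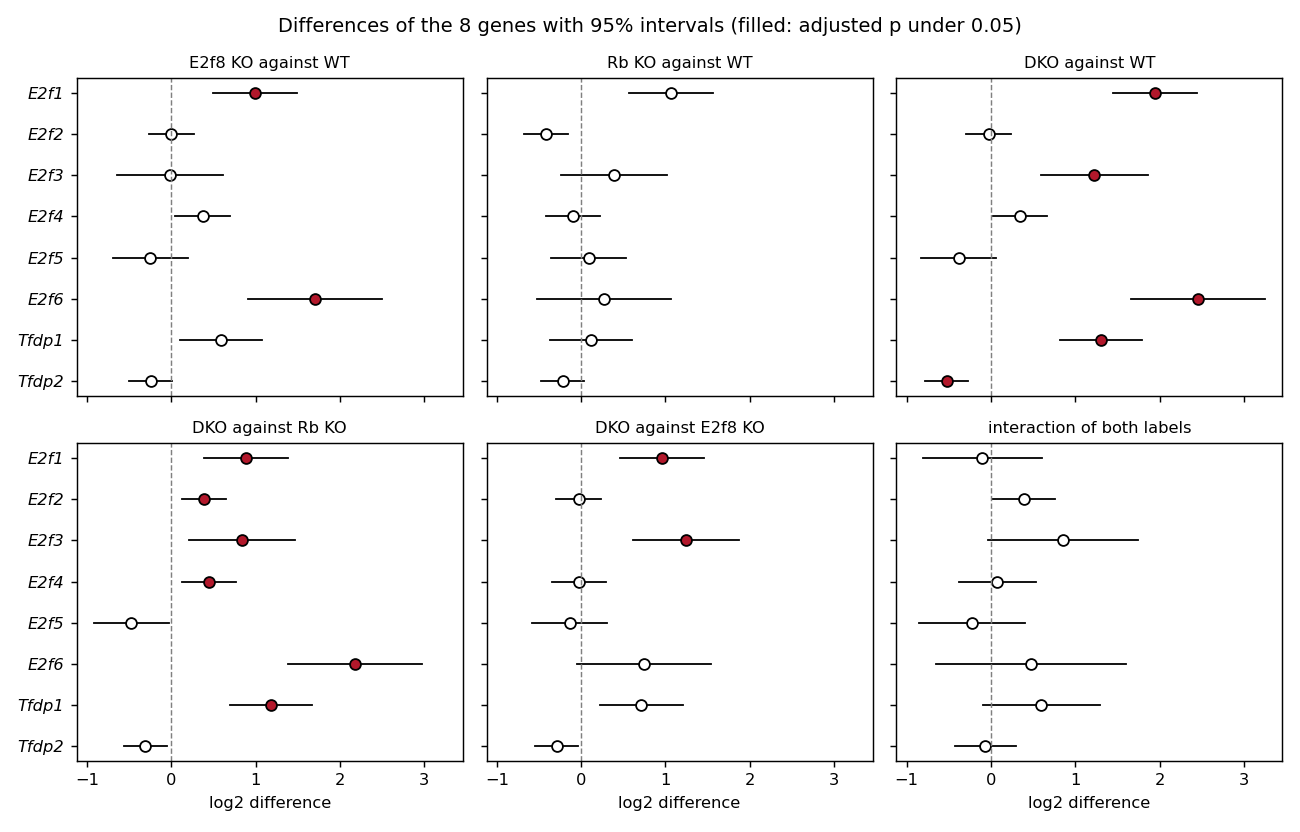
Log2 difference (x axis) of the 8 genes (y axis) in 5 pairwise comparisons and in the interaction of both labels, from a limma fit to 12 arrays. Points are estimates, lines are 95% intervals of a single gene and filled points have an adjusted p under 0.05. The intervals of E2f1 lie above 0 in every pairwise panel, while in the interaction panel no gene is called and E2f2 has the only interval that leaves out 0 (0.01 to 0.76).

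None of the 8 genes departed from additivity of the labels on the log2 scale at the threshold used, in an interaction that limma called for 0.077% of tested genes (0.0539% higher, 0.0231% lower). E2f2 alone had an unadjusted limma p under 0.05 (0.39 ± 0.17, unadjusted p = 0.0438). The share of all tested genes at that unadjusted level is not given here, and the shares above are for adjusted p. For E2f1 the difference of DKO from WT was 1.95, and those of the single labels were 0.99 and 1.06. For E2f3 the corresponding values were 1.23, -0.01 and 0.39, for Tfdp1 1.30, 0.59 and 0.12, and for Tfdp2 -0.53, -0.24 and -0.22. The intervals of the interaction were wide, up to 1.75 for E2f3 and 1.29 for Tfdp1, so that departures of that size lie within the intervals that 3 arrays per group allow.

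Markers of other cells moved with the labels under which these genes rose. B cell means did not overlap between arrays with and without the E2f8 label. The covariate fits below therefore cannot tell label and cell content apart, and their part in these differences was not tested. The E2f8 KO and DKO arrays, with the high E2f6 and E2f4 signals, were those with the low B cell, T cell and macrophage means. Granulocyte means ran the other way, at 8.17 to 8.63 in E2f8 KO and 6.86 to 10.23 in DKO. They were 6.28 to 6.47 in WT and 6.84 to 6.93 in Rb KO, a range that held replicate 1 of DKO (6.86). E2f1 averaged 11.36 on the Rb KO arrays, with B cell means of 9.80 to 11.95, and 11.28 on the E2f8 KO arrays, with 7.72 to 8.11. Within Rb KO, replicate 1 had the lowest B cell mean (9.80 against 11.95 and 11.87) and the highest erythroid mean (12.67 against 12.20 and 11.90), and also the highest values of its group for all of the genes but E2f5, including Tfdp2 (12.25 against 12.03 and 12.18). Replicate 3 of Rb KO, with the lowest erythroid mean, had the lowest E2f2, E2f3, E2f4, E2f6 and Tfdp1. With the B cell mean of each array as a covariate, the difference of DKO from WT was 0.81 ± 0.48 for E2f1 (adjusted p = 0.323), 0.01 ± 0.64 for E2f3, 1.03 ± 0.82 for E2f6 (adjusted p = 0.473) and 0.37 ± 0.51 for Tfdp1, and none of these was called. Tfdp2 stayed lower, at -1.01 ± 0.28. With the B cell and macrophage means together, E2f6 rose by 2.30 ± 0.68 and Tfdp2 fell by 1.20 ± 0.29, both past the threshold, while E2f1 (1.18 ± 0.52), E2f3 (0.77 ± 0.63) and Tfdp1 (0.99 ± 0.48) were not called. In E2f8 KO against WT, E2f1 and E2f6 were at 0.16 ± 0.37 and 0.67 ± 0.63 with the B cell mean, and at 0.30 ± 0.36 and 1.14 ± 0.47 with both means, with no call. In Rb KO against WT, the B cell mean left E2f1 at 1.12 ± 0.18, which was then called (adjusted p = 0.0108). With the granulocyte mean, chosen after the data were seen, E2f1, E2f6 and Tfdp1 stayed called in DKO against WT (1.82 ± 0.33, 2.09 ± 0.52 and 1.16 ± 0.33), and none of the 8 was called in E2f8 KO against WT. The slopes of these covariates come from differences within groups and are carried over a larger distance between them, which widens the errors.

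**Figure D4:**
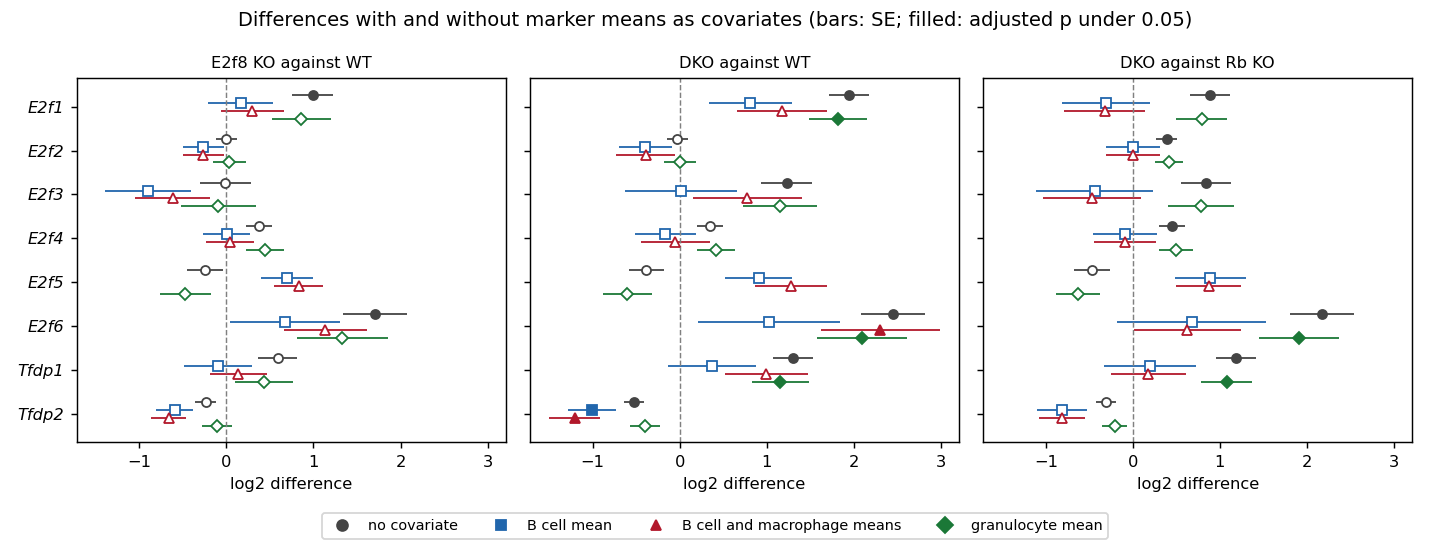
Log2 difference (x axis) of the 8 genes (y axis) in 3 comparisons, without a covariate (circles) and with the array means of B cell markers (squares), B cell and macrophage markers (triangles) or granulocyte markers (diamonds) in the fit. Bars are SE and filled symbols have an adjusted p under 0.05. Among the estimates with the B cell mean, only Tfdp2 in DKO against WT is filled, at -1.01, and in DKO against Rb KO the squares of E2f1, E2f3, E2f4 and Tfdp2 lie below 0.

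Genes around the E2Fs in the pathway were counted in lists chosen with earlier results of these data known. Of the pocket protein genes, which encode the partners that hold E2Fs in check, Rb1 fell by 1.11 ± 0.11 and Rbl2, of p130, by 0.72 ± 0.19 in E2f8 KO. In DKO, Rb1 fell by 0.70 ± 0.11 and Rbl2 by 0.90 ± 0.19, while Rbl1, of p107, rose by 0.92 ± 0.22. Both atypical genes rose in E2f8 KO and DKO: E2f7 by 1.16 ± 0.25 and 2.24 ± 0.25, and E2f8 by 0.86 ± 0.19 and 1.18 ± 0.19. Of 16 tested G1 cyclin, Cdk and Cdk inhibitor genes, 7 rose and 2 fell in each of these comparisons, against 11.9% higher and 14.2% lower of all tested genes in E2f8 KO and 20.6% and 17.6% in DKO. Cdk2, the S phase kinase gene, rose by 1.46 ± 0.22 and 1.78 ± 0.22, Skp2, of a ubiquitin ligase subunit, by 1.48 ± 0.26 and 1.98 ± 0.26, and in DKO cyclin D1 (Ccnd1) fell by 1.51 ± 0.20. The B-Myb and MuvB core genes rose in 6 of 6 cases in both, with Rbbp4, of a histone-binding subunit, at 0.82 ± 0.12 and 0.95 ± 0.12, but in 3 of 6 in E2f8 KO without any 1 of its replicates. Of 13 genes for E2f6 complex partners, 5 rose and 1 fell in E2f8 KO (26.1% of all tested genes called) and 7 rose and 1 fell in DKO (38.2%). Only 3 rose in E2f8 KO without replicate 2 of WT or of E2f8 KO, and 4 in DKO without replicate 3 of WT. Among them Wdr5, of a histone methylation complex subunit, rose by 1.16 ± 0.23 and 1.73 ± 0.23, and in DKO Rybp, of a polycomb subunit, by 1.29 ± 0.20. Of the genes that fell in E2f8 KO, 1 in place of 2 pocket protein genes was called without replicate 1 or 2 of WT or replicate 1 of E2f8 KO. Likewise 1 in place of 2 cyclin and Cdk genes was called lower without replicate 1 or 2 of WT or any 1 replicate of E2f8 KO. With the B cell mean as a covariate, 0 atypical, cyclin and Cdk, MuvB core or E2f6 partner genes were called in E2f8 KO or DKO, and 1 pocket protein gene was lower in each. With the granulocyte mean, 0 of 2 atypical, 5 of 16 cyclin and Cdk, 2 of 6 MuvB core and 1 of 13 E2f6 partner genes were higher in E2f8 KO, and 2, 6, 4 and 2 in DKO.

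Many target genes of the E2Fs were higher in E2f8 KO and DKO than in WT. Of 33 tested G1/S targets, 22 rose and 0 fell in E2f8 KO (median 0.70), and 33 rose in DKO (median 1.37), against a background of 11.9% and 20.6% of all genes called higher. In DKO, Uhrf1, of a factor that maintains DNA methylation, rose by 1.76 ± 0.18, the replication licensing gene Cdt1 by 1.72 ± 0.20 and Slbp, of the histone mRNA binding protein, by 1.64 ± 0.22. Of 19 tested G2/M targets, 17 rose in E2f8 KO and 16 in DKO, none fell, and the medians were 0.94 and 0.87. These counts moved when 1 array was left out. For G1/S targets in E2f8 KO the count was 5 and 14 without replicate 2 and 3 of WT, and 7, 13 and 12 without replicate 1, 2 and 3 of E2f8 KO. It was 8 without replicate 3 of E2f8 KO and of DKO together, and it stayed at 33 in DKO without any 1 array. For G2/M targets it was 5 in E2f8 KO without replicate 2 of WT and 10 without replicate 1 of E2f8 KO. In DKO it was 7 and 9 without replicate 2 and 3 of WT, 10 and 9 without replicate 1 and 2 of DKO, and 9 without the arrays apart in Xist. The mitotic kinase gene Ttk rose by 1.29 ± 0.27 and 1.27 ± 0.27, and Foxm1, of a G2/M transcription factor, by 1.14 ± 0.23 and 1.09 ± 0.23. In DKO against E2f8 KO, where E2f1 and E2f3 rose, 3 of 33 G1/S targets rose (Cdt1 by 0.95 ± 0.20, Rfc4 by 1.07 ± 0.26 and Pola2 by 0.73 ± 0.18) and 0 of 19 G2/M targets did, with medians of 0.64 and -0.13. Of all tested genes, 1.73% were called higher in that comparison. The G1/S count there was 0 without any 1 replicate of E2f8 KO or DKO, 14, 1 and 8 when replicate 1, 2 or 3 of Rb KO was dropped, 6 and 1 when replicate 1 or 3 of WT was, and 29 with only these groups in the fit. The shares of all genes called in these refits are not given here, so the counts cannot be set against them. In E2f8 KO against Rb KO, where E2f1 was not called, 18 of 19 G2/M and 9 of 33 G1/S targets were higher, against 12.2% of all tested genes. In Rb KO against WT limma called no gene of the 7 lists, where it called 1 of all genes. With the B cell mean as a covariate 0 of 33 G1/S and 0 of 19 G2/M targets were called in E2f8 KO and in DKO, with medians of -0.11 and 0.17 for G1/S and -0.07 and -0.46 for G2/M. With the granulocyte mean, 1 G1/S and 5 G2/M targets were higher in E2f8 KO, and 30 and 6 in DKO.

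**Figure D5:**
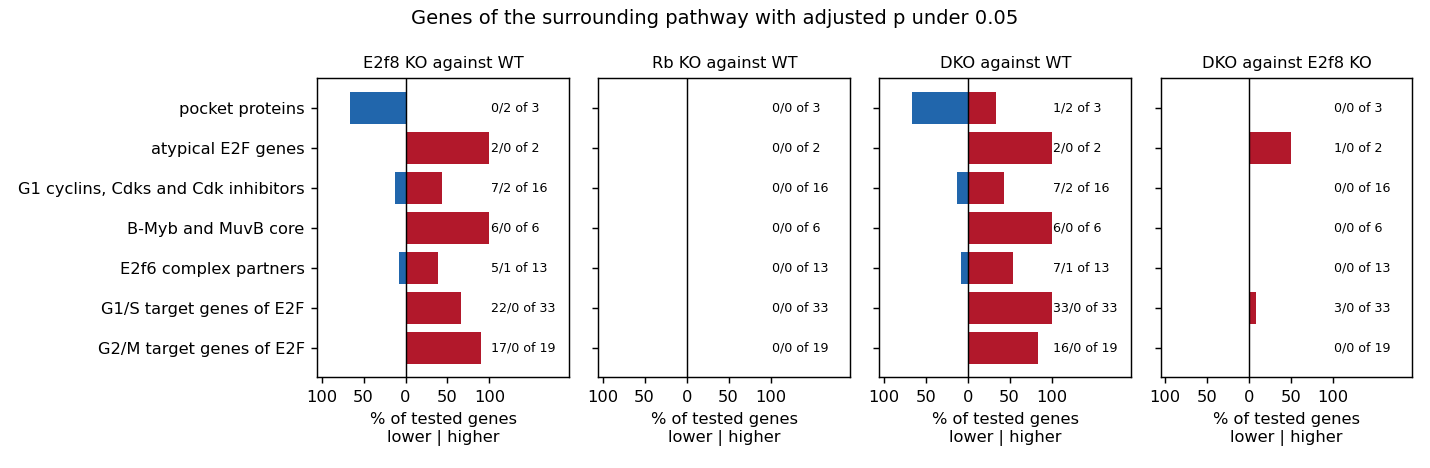
Share of tested genes (x axis, percent) of 7 pathway lists (y axis) called lower (blue, to the left of 0) or higher (red, to the right) at an adjusted p under 0.05 in 4 comparisons. The text beside each bar gives the number higher, the number lower and the number tested. All 33 G1/S targets are called higher in DKO against WT and none in Rb KO against WT.

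Each of the 7 genes called in at least 1 comparison was matched to the genes with the most similar course over the 12 arrays. Likeness was the root mean square difference of log2 profiles, each centred on its own mean, so that smaller is more alike. For E2f1 they were Dtl, Pole4 and Cenpm (0.21, 0.21 and 0.21, against 0.77 for the median tested gene). For E2f3 they were Rfc4, Ppat and Tfb1m (0.13, 0.15 and 0.16, median 0.66), and for E2f6 Pbk, Ranbp17 and Jade3 (0.16, 0.22 and 0.22, median 1.12). Those nearest to Tfdp1 were Atpaf2, Rcc1 and Slc25a12 (0.10, 0.11 and 0.11, median 0.61). E2f4 ran closest to Dmtn, Prkab1 and Ank1 (0.07, 0.09 and 0.09, median 0.35), of which Dmtn and Ank1 encode red cell membrane skeleton proteins. Tfdp2 ran closest to Slc25a37, Pyurf and Cybrd1 (0.08, 0.08 and 0.09, median 0.37), and Slc25a37 encodes mitoferrin, the mitochondrial iron importer of erythroblasts. E2f2 ran closest to Mir7-2, Dnajb13 and Trim56 (0.10, 0.11 and 0.11, median 0.35). The profiles of E2f2, Tfdp2 and E2f4 themselves varied by only 0.21, 0.21 and 0.26 about their means, so small differences to other genes say little there.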

How the data were processed

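Single-channel Affymetrix arrays measured RNA of sorted spleen cells from 12 samples. The table as deposited holds 1 log2 value per probe set and array (scale inferred from its range, 1.07 to 14.8). MAS5 is the tool named per the submitters' processing notes; no source used here gives its version, the background correction or the normalization. It is not the usual method for gene-level arrays of this kind, so how the values were made is uncertain. Array medians lay between 6.22 and 6.35, and precision is limited by having 3 arrays per group. The platform annotation gave 1 symbol for 21789 of 35557 probe sets, and RefSeq gene numbers updated 21698 of these. The lowest 40% of probe sets by mean were removed, and the probe set with the highest mean stood for each gene (12980 genes).

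The authors' log2 values were fitted without change in limma (version 3.58.1, R 4.3.3), with a mean for each genotype label, a variance trend and 8 residual degrees of freedom. Benjamini-Hochberg adjustment ran over all genes within each of 7 comparisons, two-sided, at 0.05. The fit was tested on simulated data. Genes and lists were chosen with earlier results of these data known. Named genes are the 8 genes, list members called with the smallest p (up to 3 per list and comparison), Rb1, E2f8, fixed markers and the 3 nearest profiles of each called gene; Xist and Eif2s3y were added after their values were seen. Alternatives were no filter, a 60% filter, quantile normalization, averaging of probe sets, no variance trend, only the groups compared, a replicate block, B cell and macrophage covariates and leaving out each array. A granulocyte covariate and fits without 2 pairs of arrays were added after seeing the data.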

Additional observations from a re-analysis of the deposited data

How the results depend on the processing

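Of 1329 alternative values for 56 results on single genes, 1131 kept direction and side of the threshold, 92 lost a call, 31 gained one, 8 reversed and 67 changed sign with no call either way. The number of the 8 genes called moved as follows, and the cause was not tested. The share of all genes called in each refit, for these counts and for those of the lists, is not given here. The counts therefore do not show a change particular to the 8 genes. With the B cell covariate it was 0 for E2f8 KO against WT, 1 for Rb KO against WT, 1 for DKO against WT, 0 for DKO against Rb KO, 1 for DKO against E2f8 KO and 0 for E2f8 KO against Rb KO. With B cell and macrophage covariates together it was 0, 0, 2, 0, 5 and 0 in the same order, and with the granulocyte covariate 0, 0, 3, 2, 0 and 0. DKO against Rb KO reversed with the B cell covariate for E2f1 (-0.31), E2f3 (-0.44) and E2f4 (-0.091), and with both covariates for E2f1 (-0.32), E2f3 (-0.47) and E2f4 (-0.096). E2f8 KO against Rb KO reversed with both for E2f4 (-0.0022) and E2f6 (-0.54). With only the groups compared in the fit, 4 were called for E2f8 KO against WT, 3 for DKO against Rb KO and 4 for DKO against E2f8 KO. The count for DKO against E2f8 KO was 0 with no filter and 1 with quantile normalization, averaged probe sets or no variance trend. Without replicate 1 of Rb KO and replicate 3 of DKO, 4 were called for E2f8 KO against WT. Without replicate 3 of E2f8 KO and of DKO, 3 were called for DKO against Rb KO, 0 for DKO against E2f8 KO and 1 for E2f8 KO against Rb KO. Leaving out each array in turn gave 2 to 4 for E2f8 KO against WT, 0 to 0 for Rb KO against WT, 5 to 6 for DKO against WT, 3 to 8 for DKO against Rb KO, 0 to 3 for DKO against E2f8 KO and 0 to 4 for E2f8 KO against Rb KO. The interaction called 0 of the 8 in every fit.

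Replicate numbers did not pair the arrays: 7 of 18 same-numbered pairs correlated above 0.1 (range -0.379 to 0.570), and 1 of 12 arrays correlated best with its own number. With a replicate block, 1 gene was called for DKO against E2f8 KO (E2f3, at 1.24, had an adjusted p of 0.0553), and no other count of calls moved by over 1.5 times. Signal over background was not analysed here, and E2f5 lies close to the filter level.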
